A study of Mus musculus with 6 samples.

Results

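The Hippo pathway genes described here are 10 transcripts of the cultured mouse ovary. They code for the upstream protein merlin (Nf2), the kinases MST1 (Stk4), MST2 (Stk3), LATS1 (Lats1) and LATS2 (Lats2), the scaffold Salvador (Sav1), the coactivators YAP (Yap1) and TAZ (Wwtr1), and the DNA-binding factors Tead1 and Tead2. They were taken by symbol from the deposited table of expression values, and all 10 symbols were found among its 26329 genes. Control stands for 3 libraries of ovaries kept in culture medium with DMSO, and ISRIB for 3 libraries whose medium also held ISRIB, so DMSO was common to both groups. The labels used here give no dose, no culture time and no age. ISRIB stabilises eIF2B, a complex needed to start translation, and so counters the block on protein synthesis that the integrated stress response imposes. From its title, the study asks about activation of primordial follicles, the resting reserve of oocytes, and about mTOR. The labels do not say that replicates were separate animals or cultures, and p-values then measure only how these 6 samples scatter, which may be technical.

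In the Hippo pathway, MST kinases with Salvador activate the LATS kinases, helped by merlin at the cell cortex. Active LATS phosphorylates YAP and TAZ, which are then held in the cytoplasm or degraded. When the kinases are quiet, YAP and TAZ enter the nucleus, bind TEAD factors and switch on genes for growth and matrix. In the ovary, cutting the tissue into fragments is known to disturb this cascade and to promote follicle growth. Much of this control acts on the phosphorylation and location of proteins, which RNA levels do not show.

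Levels are in FPKM, that is, fragments scaled to gene length and to library size. Whole read numbers worked back from them totalled 34474821 to 38002135 per library, and each of the 10 genes was covered by 2188 to 8551 reads in every library. Differences are log2 fold changes, ISRIB minus Control, on the log2(FPKM + 0.5) scale. They were tested with limma over 12922 genes that reached a mean FPKM of 1, a filter that all 10 passed, and a gene was called at an adjusted p (Benjamini-Hochberg over those genes) under 0.05. Markers of oocytes, granulosa cells, stroma, endothelium, surface epithelium, smooth muscle and immune cells were all detected, and none was listed at 0 in every library. In such bulk RNA, fewer cells of a type and less RNA per cell cannot be told apart. Immediate early genes, transcripts that rise soon after stimulation or handling, set 2 libraries apart. The summed FPKM of 13 of them was 707 in ISRIB replicate 1 and 450 in Control replicate 2, against 213 to 262 in the other 4 libraries. Values without these 2 libraries are given for Tead1, Tead3, Mob1b, Ccn1 and Ccn2.

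The sequences just upstream of a few of these genes show where the pathway's own DNA-binding factors could meet it. TEAD factors recognise the core CATTCC, which reads GGAATG on the other strand. Each line below gives the 250 bases before the transcription start from RefSeq (GRCm38.p6), on the strand of the gene, with each match to the core in capitals. Yap1 and Wwtr1 are shown because they code for the coactivators that bind TEADs, Sav1 as the remaining gene of the 10 with a match, and Ccn1 as a classical target whose level differed widely between libraries.
Yap1, chr9:8004597-8004846, minus strand: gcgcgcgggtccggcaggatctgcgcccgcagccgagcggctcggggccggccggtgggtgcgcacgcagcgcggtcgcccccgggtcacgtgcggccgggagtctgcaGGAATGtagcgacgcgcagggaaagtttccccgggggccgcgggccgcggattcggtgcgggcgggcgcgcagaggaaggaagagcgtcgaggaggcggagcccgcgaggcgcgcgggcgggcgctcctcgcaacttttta
Wwtr1, chr3:57575911-57576160, minus strand: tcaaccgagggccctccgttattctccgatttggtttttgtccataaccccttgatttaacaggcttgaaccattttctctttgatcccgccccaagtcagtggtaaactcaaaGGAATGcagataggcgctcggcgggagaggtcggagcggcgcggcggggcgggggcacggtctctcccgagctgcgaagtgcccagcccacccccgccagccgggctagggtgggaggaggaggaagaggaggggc
Sav1, chr12:69987003-69987252, minus strand: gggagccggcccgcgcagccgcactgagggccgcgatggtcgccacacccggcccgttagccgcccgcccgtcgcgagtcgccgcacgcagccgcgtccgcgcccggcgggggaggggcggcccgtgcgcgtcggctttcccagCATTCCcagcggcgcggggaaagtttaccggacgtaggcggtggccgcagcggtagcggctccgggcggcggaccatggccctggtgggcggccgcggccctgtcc
Ccn1, chr3:145649986-145650235, minus strand: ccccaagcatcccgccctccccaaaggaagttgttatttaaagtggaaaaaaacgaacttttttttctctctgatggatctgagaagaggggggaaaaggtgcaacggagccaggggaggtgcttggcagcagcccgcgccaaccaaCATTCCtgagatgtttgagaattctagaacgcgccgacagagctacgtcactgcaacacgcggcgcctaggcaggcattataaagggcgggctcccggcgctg
The match began 141 bases before the start in Yap1, 136 in Wwtr1, 106 in Sav1 and 103 in Ccn1. RefSeq windows were matched for 8 of the 10 genes (Stk3 and Tead1 had none), and 3 of these 8 held the core. Among 20 known YAP and TEAD target genes, 13 had a window and 5 of them held it (Amotl2, Ankrd1, Axl, Ccn1 and Crim1). Among 44 further pathway genes described below, 36 had a window and 12 of them held it. Of all 32851 windows of this length, 12.6% held it on either strand. This share is per window, whereas a gene counted if any of its windows held the core. The 8 genes had 11 windows, so the shares are not of like units. A match of 6 letters is a description, not a binding site.

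None of the 10 genes passed the test. Over all genes tested, 0.0% passed at a limma adjusted p under 0.05 (0 genes, with a smallest adjusted p of 0.0608, and 120 genes, or 0.929%, in limma's voom on the recovered reads, none of them among the 10), so the 10 share this with the rest of the table. At an unadjusted p under 0.05 there was 1 of the 10, Nf2, lower in ISRIB. The background was 16.4% of all genes in either direction (2125 genes), 7.73% on the lower side and 8.71% on the higher side. All ISRIB libraries lay below all Control libraries for 3 of the 10 (Nf2, Stk4 and Wwtr1), against 12.0% of all genes, and lay above them for 0 of the 10, against 10.8%. By direction alone, 8 were lower and 2 higher in ISRIB, where 48.2% of all genes were lower and 51.8% higher, and the median log2 fold change was −0.04 against 0.01 for all genes. These counts are a description. TPM rescaling, which divides each library by its summed FPKM, put all 10 on the lower side with a median of −0.09. It also put 64.0% of all genes there, with a median of −0.04, and turned the direction of Lats1 and Tead2, both near 0.

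**Figure D1:**
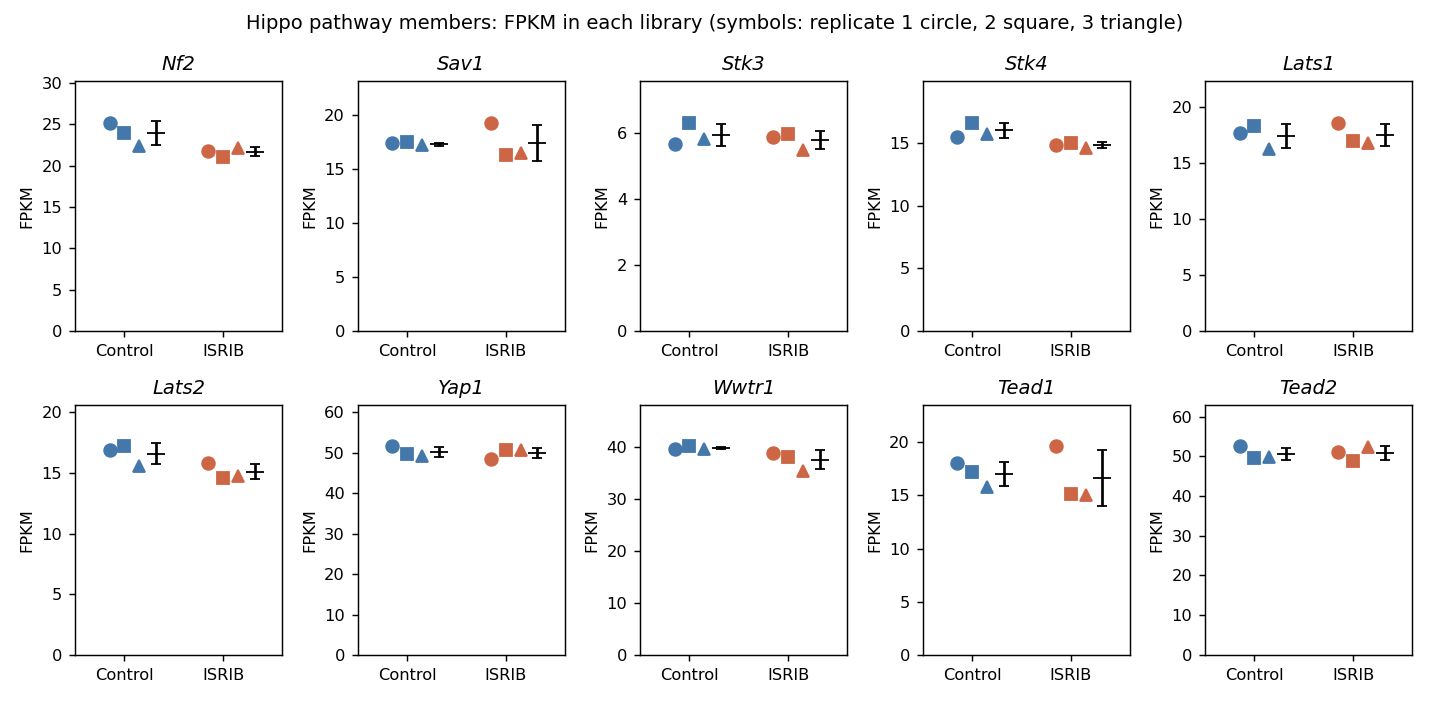
FPKM (vertical axes, from 0) of the 10 genes in the 3 Control (blue) and 3 ISRIB (orange) libraries, with the mean and SD (n = 3) in black beside each group. The groups separate by small steps for Nf2, Stk4 and Wwtr1, and ISRIB replicate 1 stands above the other ISRIB libraries for Tead1 and Sav1.

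Merlin, an adaptor at the cell cortex that brings LATS to the membrane, had the smallest p of the 10. Its gene Nf2 (chromosome 11, 4765845 to 4849536, minus strand, GRCm38) measured 25.2, 24.0 and 22.4 FPKM in Control and 21.8, 21.1 and 22.1 FPKM in ISRIB. All ISRIB libraries lay below all Control libraries, with Control replicate 3 and ISRIB replicate 3 almost touching. The means were 23.9 ± 1.45 and 21.7 ± 0.513 FPKM (SD, n = 3 each). Their log2 fold change was −0.13 (SE 0.0555, 95% interval −0.26 to −0.01, unadjusted p = 0.0416, limma adjusted p = 0.288). The ISRIB level was thus 0.911 of the Control level, with an interval of 0.834 to 0.995. Once a trend of fold change with gene length was removed from each library, the unadjusted p was 0.0747 and the log2 fold change −0.11.

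The MST kinases start the core cascade, and Salvador holds them together with their substrates. Stk4 (chromosome 2, 164070322 to 164155524, plus strand) measured 15.5, 16.6 and 15.7 FPKM in Control and 14.8, 15.0 and 14.6 in ISRIB. The groups did not overlap, and the gap between them was smaller than the range within Control. The log2 fold change was −0.11 (SE 0.0494, unadjusted p = 0.0644, limma adjusted p = 0.332). Its paralog Stk3 (chromosome 15, 34875496 to 35178921, minus strand) measured 5.68, 6.31 and 5.82 FPKM in Control and 5.89, 5.98 and 5.47 in ISRIB, with the groups mixed. Its log2 fold change was −0.04 (95% interval −0.20 to 0.13, limma adjusted p = 0.834).

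Sav1 (chromosome 12, 69965012 to 69987002, minus strand) was nearly the same in the 3 Control libraries and spread in ISRIB. It measured 17.4, 17.5 and 17.2 FPKM in Control and 19.3, 16.3 and 16.5 FPKM in ISRIB. ISRIB replicate 1 lay above every Control library and the other 2 ISRIB libraries below every one. The coefficient of variation was 0.957% in Control, under the 2.06% that counting its reads alone would give, and 9.55% in ISRIB. The log2 fold change was −0.001 (95% interval −0.16 to 0.16), and −0.08 without ISRIB replicate 1. In GENCODE M21, 1336 exonic bases of Sav1 lie within the span of Atl1 on the opposite strand, and no source used here says whether counting used strand, so reads of the pair may not be told apart.

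The LATS kinases are the enzymes that phosphorylate YAP and TAZ, and Lats2 is itself a known target of YAP. Lats1 (chromosome 10, 7681214 to 7716460, plus strand) measured 17.7, 18.3 and 16.3 FPKM in Control and 18.6, 17.0 and 16.8 in ISRIB, with the groups mixed. Its log2 fold change was 0.01 (95% interval −0.14 to 0.15, limma adjusted p = 0.973). Lats2 (chromosome 14, 57689662 to 57758388, minus strand) measured 16.9, 17.2 and 15.6 FPKM in Control and 15.8, 14.6 and 14.8 in ISRIB. Control replicate 3 lay below ISRIB replicate 1, so the groups overlapped by that pair. Its log2 fold change was −0.13 (SE 0.0581, unadjusted p = 0.0506, limma adjusted p = 0.304). In GENCODE M21, 6762 exonic bases of Lats2 lie within the span of the gene model Gm49361 on the same strand, and no source used here says how such reads were assigned.

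YAP and TAZ are the coactivators that the cascade restrains. Yap1 (chromosome 9, 7931999 to 8004596, minus strand) measured 51.6, 49.7 and 49.2 FPKM in Control and 48.5, 50.8 and 50.7 in ISRIB. The 6 libraries were interleaved and spanned 48.5 to 51.6 FPKM. The log2 fold change was −0.005 (SE 0.0420, limma adjusted p = 0.968), and its 95% interval placed the ISRIB level between 0.932 and 1.07 of Control. The SD within groups was 0.0369 on the log2 scale, lower than in all but 7.05% of the genes tested.

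Wwtr1 (chromosome 3, 57455649 to 57575910, minus strand) measured 39.6, 40.1 and 39.7 FPKM in Control and 38.9, 38.1 and 35.4 FPKM in ISRIB. Each ISRIB library lay below each Control library, and ISRIB replicate 3 was the lowest. The log2 fold change was −0.09 (SE 0.0472, 95% interval −0.20 to 0.02, unadjusted p = 0.103, limma adjusted p = 0.399), and −0.05 without ISRIB replicate 3. The Control libraries had a coefficient of variation of 0.715%, under the 1.21% of counting error for its 6121 to 7373 reads, so their closeness does not measure the spread of further samples.

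TEAD1 and TEAD2 carry YAP and TAZ to DNA. Tead2 (chromosome 7, 45215753 to 45233644, plus strand) measured 52.5, 49.5 and 49.9 FPKM in Control and 51.1, 48.9 and 52.4 in ISRIB. The groups covered the same range, with a log2 fold change of 0.005 (95% interval −0.10 to 0.11, limma adjusted p = 0.967). Tead1 (chromosome 7, 112679318 to 112906807, plus strand) measured 18.0, 17.2 and 15.8 FPKM in Control and 19.6, 15.1 and 15.0 in ISRIB. ISRIB replicate 1, the library with the most immediate early transcripts, was the highest of the 6 and the other 2 ISRIB libraries were the lowest. Over all libraries the log2 fold change was −0.05 (SE 0.105, limma adjusted p = 0.859). Without ISRIB replicate 1 it was −0.17, and without both libraries rich in immediate early transcripts −0.16. Both choices leave out the outlying ISRIB library, which lowers the spread that a test would use, so no p is given. The part of handling or stimulation in these values was not tested.

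**Figure D2:**
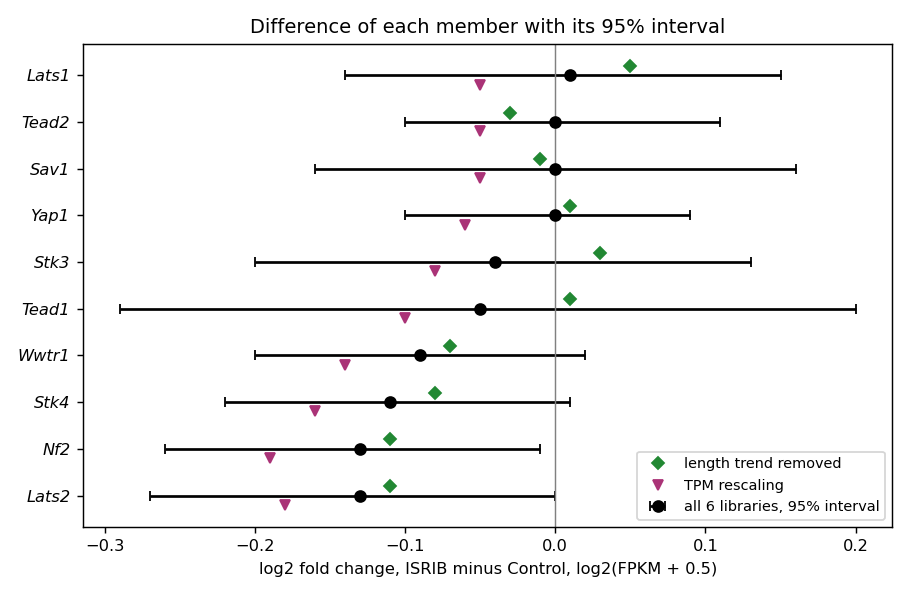
Log2 fold change of each of the 10 genes (ISRIB minus Control, horizontal axis, log2(FPKM + 0.5) scale) with its limma 95% interval in black, and the same after removal of the length trend (green) or TPM rescaling (purple). All intervals reach 0 at 2 decimals except that of Nf2, which ends at −0.01, and TPM rescaling shifts all 10 values down.

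Within the families, the balance between paralogs was compared as a ratio of FPKM in each library, which scaling of a library does not move. The ratio of Lats1 to Lats2 was 1.04, 1.07 and 1.04 in Control and 1.18, 1.17 and 1.13 in ISRIB, so all ISRIB libraries lay above all Control libraries. The difference was 0.14 on the log2 scale (SDs 0.0177 and 0.0309, n = 3 each, exact two-sided permutation p = 0.1, the smallest that 3 against 3 can give, and 0.267 adjusted over the 4 pairs). It stayed between 0.13 and 0.16 when single libraries were left out. The ratio of Yap1 to Wwtr1 was 1.30, 1.24 and 1.24 in Control and 1.25, 1.33 and 1.43 in ISRIB (difference 0.08, exact permutation p = 0.2). Stk3 to Stk4 was 0.366, 0.379 and 0.370 against 0.398, 0.398 and 0.375 (difference 0.07, exact permutation p = 0.2). These 2 pairs each overlapped between groups by 1 library of each group. Tead1 to Tead2 went from 0.286 to 0.384 over the 6 libraries with both extremes in ISRIB (exact permutation p = 0.7). A trend with gene length can move such ratios, and they were not taken with that trend removed. At that setting the log2 fold changes were 0.047 for Lats1 and −0.108 for Lats2, and 0.005 for Yap1 and −0.073 for Wwtr1. Those of the other pairs were 0.026 for Stk3 and −0.083 for Stk4, and 0.009 for Tead1 and −0.034 for Tead2. With 3 libraries a group, no pair could have passed at 0.05, so these p-values do not separate pairs that differ from pairs that do not.

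**Figure D3:**
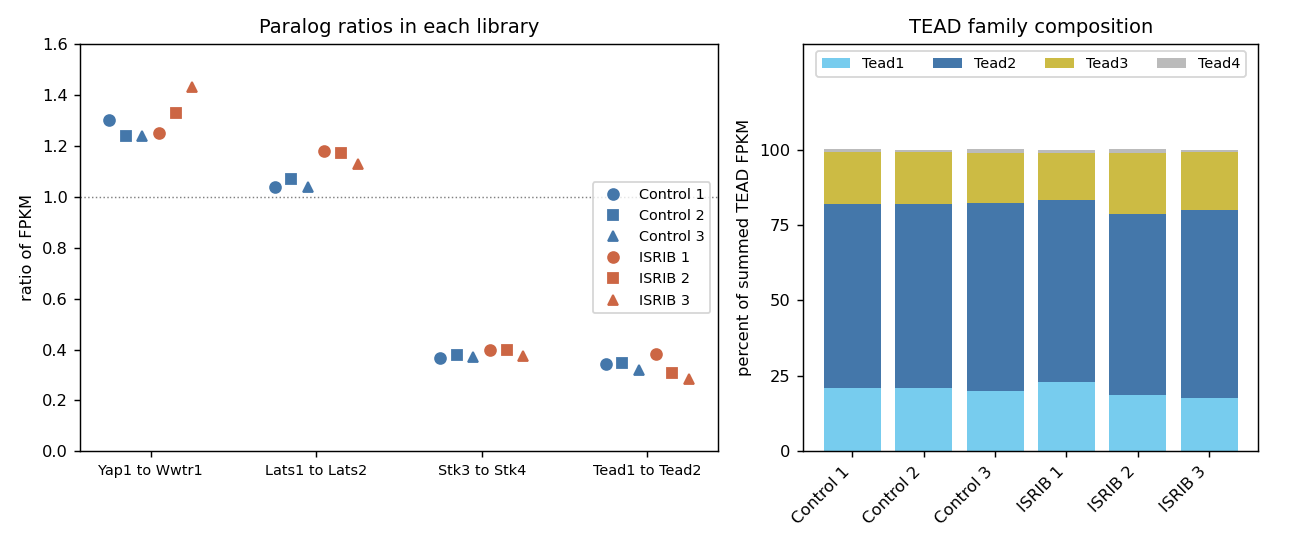
Left, the ratio of FPKM between paralogs (vertical axis, from 0) in each of the 6 libraries, with a dotted line at equal levels; right, the percent of the summed FPKM of the 4 TEAD genes that each contributed. The Lats1 to Lats2 ratio is the only one of the 4 in which the groups do not overlap, and Tead2 makes up 60.1% to 62.5% of the summed FPKM in every library, or 54.4% to 57.9% with GENCODE lengths.

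By level per gene length, Tead2 and Yap1 led with means over the 6 libraries of 50.7 and 50.1 FPKM and ranges that overlapped. Wwtr1 followed at 38.6 and Nf2 at 22.8, each apart from its neighbours in every library. Lats1 (17.4), Sav1 (17.3), Tead1 (16.8), Lats2 (15.8) and Stk4 (15.4) formed a run in which each overlapped the next, and Stk3 was lowest at 5.86 FPKM. These levels depend on the gene model behind the FPKM. The length implied by the recovered reads was 4537 bases for Yap1, where the merged exons of GENCODE M21 span 9257, and 11418 for Stk3, where they span 6114. With the GENCODE lengths, Wwtr1 would be at 39.2 FPKM, above Tead2 at 25.3 and Yap1 at 24.6, and Stk3 would be at 10.9, still below Stk4 at 14.4. Fold changes between groups do not depend on that length, except slightly through the added 0.5.

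Among the TEAD genes, Tead3 (not among the 10) contributed 15.6% to 20.2% of the summed FPKM, Tead1 17.8% to 23.1% and Tead4 0.853% to 1.31%. With the merged exons of GENCODE M21 as lengths, Tead2 made up 54.4% to 57.9%, Tead1 24.5% to 30.9%, Tead3 12.8% to 17.0% and Tead4 1.36% to 2.09%. Tead3 measured 14.7, 14.0 and 13.1 FPKM in Control and 13.3, 16.4 and 16.0 in ISRIB. ISRIB replicate 1 lay among the Control libraries and the other 2 ISRIB libraries above all of them. For Tead3 the log2 fold change was 0.12 (limma adjusted p = 0.528), and 0.22 without both libraries rich in immediate early transcripts. That choice leaves out the ISRIB library that lay among the Control libraries, so no p is given for it.

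Other genes whose profile over the 6 libraries was closest to that of Yap1 or Wwtr1 were found by the root mean square difference between log2 profiles, each centred on its own mean. Predicted and clone-named genes were left out of this search. For Yap1 the closest of the genes kept were Pex26, Rtf1 and U2surp, at 0.00653, 0.00904 and 0.0122 on the log2 scale. For Wwtr1 they were Stam, Osbp and Gpat4, at 0.00329, 0.00984 and 0.0114. With 6 libraries and up to 12922 genes such near matches are a description only.

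The wider pathway was followed in 44 further genes: receptors, scaffolds, kinases, phosphatase complexes and TEAD cofactors. Of these, 39 passed the filter, 30 were lower and 9 higher in ISRIB, with a median log2 fold change of −0.07 against 0.01 for all genes. None passed at an adjusted p under 0.05 (against 0.0% of all genes), and 11 had an unadjusted p under 0.05, 10 lower and 1 higher, against 16.4% of all genes. With the length trend removed, 4 lower and 1 higher had such a p, which is 12.8% of the 39 against 13.3% of all genes. All ISRIB libraries lay below all Control libraries for 14 of the 39, against 12.0% of all genes. They lay above for 2, against 10.8% of all genes. TPM rescaling gave 35 lower and 4 higher, where it put 64.0% of all genes on the lower side. In voom on the recovered reads 3 of the 39 passed, Fat4, Dchs1 and Amotl1, against 0.929% of all genes. Voom was run without the length correction only, and in limma 0 genes passed both without and with that correction. The part of gene length in the voom calls was not tested.

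The lowest values were in the atypical cadherins, giant adhesion molecules at the top of the pathway, where Dchs1 is the ligand of Fat4. Fat4 measured 13.4, 14.5 and 14.1 FPKM in Control and 10.2, 11.3 and 9.97 in ISRIB, a clear gap with no overlap. Its means were 14.0 ± 0.578 and 10.5 ± 0.699 FPKM (SD, n = 3 each). This is a log2 fold change of −0.40 (SE 0.0641, limma adjusted p = 0.0832, and 0.0205 in voom). Dchs1 measured 18.8, 18.2 and 18.8 FPKM in Control and 14.7, 14.7 and 15.8 in ISRIB, again with no overlap. For Dchs1 the log2 fold change was −0.30 (SE 0.0507, limma adjusted p = 0.0917, and 0.0259 in voom). Fat1, a related cadherin, measured 10.2, 10.1 and 9.81 FPKM against 8.94, 8.35 and 8.82, a log2 fold change of −0.20 (limma adjusted p = 0.152). With the length trend removed, the log2 fold changes were −0.32 for Fat4 (unadjusted p = 0.00103), −0.23 for Dchs1 (0.00264) and −0.12 for Fat1 (0.0683). The limma adjusted p values there were 0.193 for Fat4, 0.207 for Dchs1 and 0.411 for Fat1.

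Angiomotins bind YAP and keep it at cell junctions and on actin. Amotl1 measured 16.1, 14.9 and 14.9 FPKM in Control and 12.8, 12.6 and 12.3 in ISRIB, with no overlap. Its log2 fold change was −0.27 (SE 0.0533, limma adjusted p = 0.0995, and 0.0323 in voom). It was −0.21 with the length trend removed (unadjusted p = 0.00305, limma adjusted p = 0.21). Amot measured 8.90 and 7.91 FPKM on average, a log2 fold change of −0.16 (limma adjusted p = 0.275). Endothelial markers were also lower, with summed FPKM of 101 to 108 in Control and 81.8 to 91.0 in ISRIB over 5 markers. All 5 were lower on average, 4 of them without overlap, and none was at 0. Over all genes tested, 48.2% were lower, 12.0% lay below without overlap and 10.8% above. Summed immune markers were at 21.2 to 23.6 FPKM in Control and 19.8 to 21.1 in ISRIB, and the 3 of 5 that passed the filter were lower (median log2 fold change −0.34, 2 without overlap). With no filter on low values, 4 of the 5 immune markers were lower and 1 higher, with a median of −0.06. All 5 surface epithelium markers were lower as well (median −0.12, 0 without overlap, summed FPKM 158 to 177 and 157 to 163). Without Control replicate 1, 3 of these were lower and 2 higher, with a median of −0.04. Oocyte markers were at 623 to 702 FPKM in Control and 700 to 773 in ISRIB, with 4 of 6 higher and 1 of them without overlap. Granulosa markers were divided, with 3 higher and 3 lower (median 0.02). Stroma and theca markers had 2 higher and 3 lower, as had pericyte and smooth muscle markers (medians −0.01 and −0.03). Each of these lists had 1 marker without overlap, on the lower side. Of 3 oviduct and mesonephric epithelium markers tested, 2 were lower and 1 higher (median −0.15, 0 without overlap). The part of these cell types in the values of Fat4, Dchs1, Fat1 and the angiomotins was not tested.

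The remaining groups had medians nearer to 0. Of the 9 MAP4K and TAO kinases, which can activate LATS beside MST, 8 were lower and 1 higher, with log2 fold changes of −0.16 to 0.05. The most abundant of them, Map4k4, had means of 66.0 ± 2.83 and 60.8 ± 1.06 FPKM in Control and ISRIB (SD, n = 3 each, log2 fold change −0.12, unadjusted p = 0.0293, limma adjusted p = 0.248). Of 7 subunits of STRIPAK, the phosphatase complex that switches MST off, 5 were lower and 2 higher. Strn had the smallest p of these, with a log2 fold change of −0.17 (unadjusted p = 0.0165, limma adjusted p = 0.209) and all ISRIB libraries below Control. On the other side, Fgfr1op2 had a log2 fold change of 0.08 (limma adjusted p = 0.462) with all ISRIB libraries above Control. The LATS cofactor gene Mob1b was at 9.91 to 10.2 FPKM in Control but at 11.1, 7.88 and 7.26 in ISRIB, where replicate 1 was again the high one, as for Sav1 and Tead1. Its log2 fold change was −0.22 (limma adjusted p = 0.455), between −0.39 and −0.11 when single libraries were left out. It was −0.39 without both libraries rich in immediate early transcripts, which leaves out the high ISRIB library, so no p is given there. Wtip, an Ajuba family LIM protein that restrains LATS, stood on the higher side, with 27.2, 24.0 and 24.1 FPKM in Control and 28.4, 29.5 and 28.9 in ISRIB. For Wtip the log2 fold change was 0.21 (SE 0.0581, unadjusted p = 0.00768, limma adjusted p = 0.157). With the length trend removed it was 0.15 (unadjusted p = 0.0307, limma adjusted p = 0.333). Of the 3 Ajuba family genes tested, 1 was higher and 2 were lower. Limd1 was at −0.10 (limma adjusted p = 0.344) with all ISRIB libraries below Control, and Ajuba at −0.02 with the groups overlapping. The NDR kinase gene Stk38 was at 22.0 ± 0.269 and 22.5 ± 0.894 FPKM (SD, n = 3 each, log2 fold change 0.03, limma adjusted p = 0.765), and TPM rescaling turned it to −0.02. All 3 WWC and FRMD6 scaffold genes were lower (median −0.12, none with an unadjusted p under 0.05), and of 5 RASSF genes 2 were lower and 3 higher. The lowest of these was Rassf2, with a log2 fold change of −0.20 (unadjusted p = 0.0158, limma adjusted p = 0.206) and no overlap. The phosphatase gene Ptpn14 was at 5.73, 5.69 and 5.78 FPKM in Control and 4.88, 5.20 and 5.28 in ISRIB. Its log2 fold change was −0.15 (unadjusted p = 0.0456, limma adjusted p = 0.297). With the length trend removed, the unadjusted limma p was 0.208 for Ptpn14, 0.0717 for Map4k4, 0.0576 for Strn and 0.0285 for Rassf2.

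**Figure D4:**
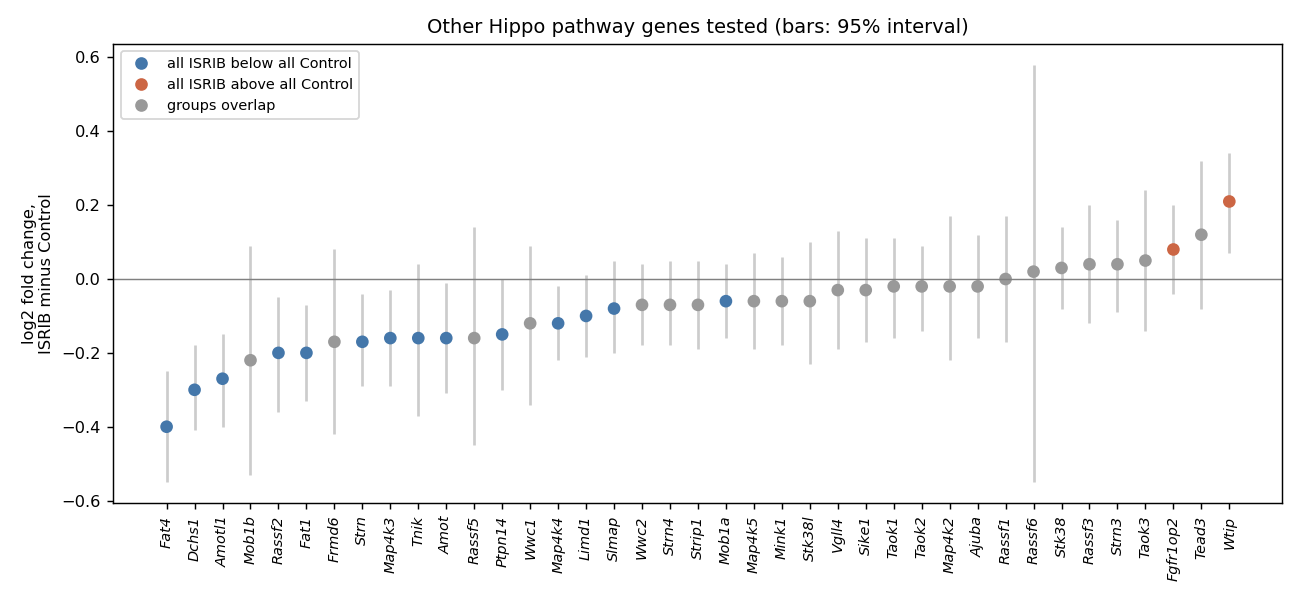
Log2 fold change (vertical axis, ISRIB minus Control) of the 39 further Hippo pathway genes that passed the filter, in order, with limma 95% intervals; blue marks genes with all ISRIB libraries below Control, orange above, grey overlapping. Fat4, Dchs1 and Amotl1 have the lowest values and Wtip the highest, and no gene passed after adjustment over all genes.

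The output of the pathway was read from 20 conserved target genes of YAP and TEAD, of which 17 passed the filter. They were divided, with 9 higher and 8 lower in ISRIB and a median log2 fold change of 0.00. None passed at an adjusted p under 0.05, and 5 had an unadjusted p under 0.05, all lower, against 7.73% of all genes on that side. In 5 of the 17 all ISRIB libraries lay below Control, against 12.0% of all genes. Without the 2 libraries rich in immediate early transcripts 11 were lower and 6 higher, against 48.2% of all genes lower. After TPM rescaling 12 were lower and 5 higher, against 64.0% of all genes lower. With the length trend removed 7 were lower and 10 higher, against 51.4% of all genes lower. At that setting 4 had an unadjusted p under 0.05, all lower. This is 23.5% of the 17, against 13.3% of all genes in either direction.

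Ccn1 and Ccn2, the classical secreted YAP targets also known as Cyr61 and Ctgf, varied widely among libraries of the same group. Ccn1 (chromosome 3, 145646976 to 145649981, minus strand) measured 7.56, 15.8 and 8.50 FPKM in Control and 20.0, 10.2 and 9.72 in ISRIB. Ccn2 (chromosome 10, 24595442 to 24598683, plus strand) measured 7.80, 19.2 and 7.28 FPKM in Control and 21.7, 13.3 and 12.5 in ISRIB. Both were highest in ISRIB replicate 1 and next in Control replicate 2, the same 2 libraries that led in immediate early transcripts. Their SDs within groups were 0.553 and 0.608 on the log2 scale, above 99.4% and 99.5% of the genes tested. For Ccn2, 1286 exonic bases lie within the span of the gene model Gm15270 on the opposite strand in GENCODE M21. As the strand setting is not given, reads of Ccn2 and Gm15270 may not be told apart.

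The log2 fold change of Ccn1 was 0.31 (SE 0.324, limma adjusted p = 0.672), and it went from −0.01 without ISRIB replicate 1 to 0.62 without Control replicate 2. That of Ccn2 was 0.55 (SE 0.355, limma adjusted p = 0.479), with 0.31 without ISRIB replicate 1 or Control replicate 3 and 0.98 without Control replicate 2. In the 4 libraries with fewer immediate early transcripts, both ISRIB libraries were above both Control libraries for either gene. The log2 fold changes there were 0.30 for Ccn1 and 0.74 for Ccn2. The libraries left out were the highest of each group for both genes, which lowers the spread that a test would use, so no p is given. The summed immediate early level in those libraries was 213 and 228 FPKM in Control and 262 and 231 in ISRIB, and its part in the result was not tested. Ankrd1, another classical target, had 0 to 5 reads per library, and no difference could be read from it at this depth.

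**Figure D5:**
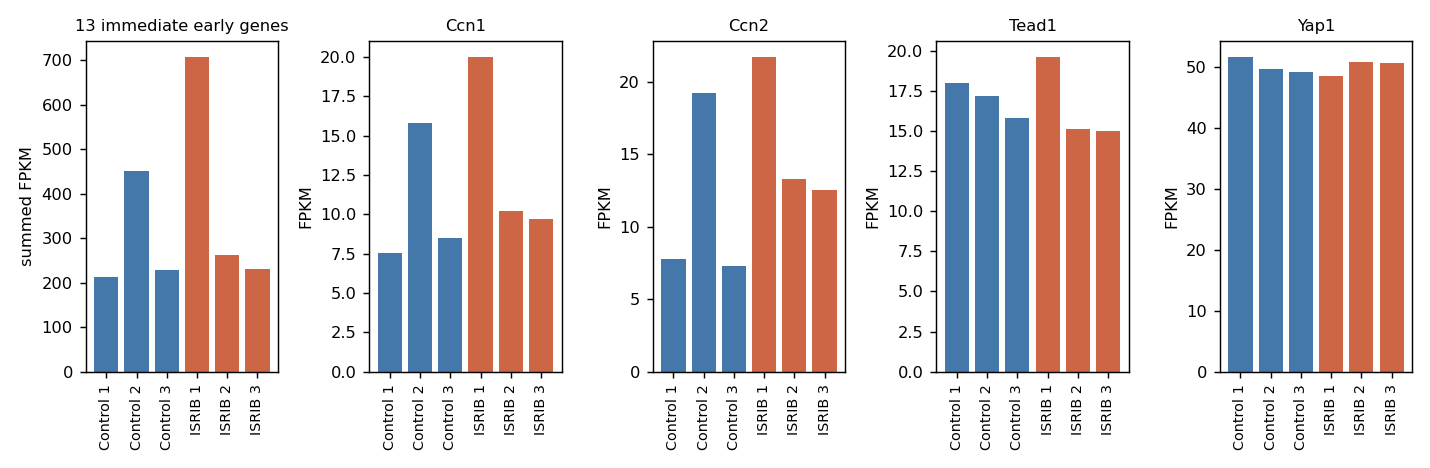
Summed FPKM of 13 immediate early genes and FPKM of Ccn1, Ccn2, Tead1 and Yap1 (vertical axes, from 0) in each library, Control in blue and ISRIB in orange. Ccn1 and Ccn2 peak in ISRIB replicate 1 and Control replicate 2 as the immediate early genes do, Tead1 is high in ISRIB replicate 1 only, and Yap1 stays between 48.5 and 51.6 FPKM.

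Among the other targets, Arhgef17 had the smallest p. It measured 36.0, 35.2 and 33.3 FPKM in Control and 27.6, 29.1 and 28.8 in ISRIB, with no overlap. For Arhgef17 the log2 fold change was −0.28 (SE 0.0478, limma adjusted p = 0.0876, and 0.0259 in voom, where it was the 1 target that passed). With the length trend removed it was −0.23 (limma adjusted p = 0.193). The matrix gene Ccdc80 measured 39.6, 37.3 and 37.5 FPKM against 34.6, 35.0 and 34.0, a log2 fold change of −0.14 (unadjusted p = 0.0121, limma adjusted p = 0.187). Asap1, which codes for a GTPase-activating protein of ARF, had a log2 fold change of −0.13 (limma adjusted p = 0.277), with −0.07 after the length correction. Fjx1, the mouse relative of the fly gene four-jointed, had −0.31 with the groups overlapping (limma adjusted p = 0.295), and −0.44 to −0.17 when single libraries were left out, the latter without ISRIB replicate 3.

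On the higher side, Gadd45a, a stress-inducible growth regulator, measured 14.5, 17.5 and 15.4 FPKM in Control and 24.8, 16.5 and 15.8 in ISRIB. Its high value was again in ISRIB replicate 1, and its log2 fold change of 0.23 (limma adjusted p = 0.499) was 0.03 without that library. Amotl2, an angiomotin that YAP induces, was steady at 9.35 ± 0.301 and 9.77 ± 0.278 FPKM (SD, n = 3 each, log2 fold change 0.06, 95% interval −0.07 to 0.19).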

How the data were processed

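Total RNA of 6 cultured mouse ovary libraries (3 Control, 3 ISRIB, grouped by sample title) was sequenced with a universal RNA-seq kit, as the labels' protocols state. The authors deposited FPKM for 26329 genes, with 0 further columns of sample values. Tools listed in the submitters' processing notes are HISAT2, HTSeq, DESeq2, fastp and R 3.2.0, with the build mm10 and no roles. Annotation, strand setting and scaling total: not given in the sources used here. FPKM came out as whole reads for 100.0% of genes (tolerance 0.01 read), and depth and implied gene length were taken from these.

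Because FPKM is no count, the test was limma 3.58.1 (R 4.3.3) on log2(FPKM + 0.5), two-sided, for 2 groups, with variance moderated along expression level. The fit was tested on simulated data. Tables and figures used Python 3.11.15, pandas 2.3.3 and matplotlib 3.10.9. Gene positions follow GENCODE M21 on GRCm38, which is mm10, and promoters RefSeq.

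The members and lists were chosen with earlier results of these data known. Named genes were the 10 members, the 4 further pathway genes and 4 targets with the smallest p in each direction, Ccn1, Ccn2 and Ankrd1. Ajuba, Amot, Limd1, Map4k4, Mob1b, Ptpn14, Rassf2, Strn, Tead4 and the role groups were chosen after their values were seen. Alternatives were pseudocounts of 0.1 and 1, no filter, a minimum mean FPKM of 5, TPM rescaling, quantile normalization, a correction for gene length by loess (span 0.5), voom on the recovered reads, the replicate number as a block and leaving out each library. Leaving out Control replicate 2 and ISRIB replicate 1 together was added after seeing the data.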

Additional observations from a re-analysis of the deposited data

How the results depend on the processing

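None of the 10 genes passed after adjustment over all genes under any of the 16 alternatives. The lowest adjusted p values over these were 0.152 for Nf2, 0.159 for Stk4, 0.166 for Lats2 and 0.182 for Wwtr1, and these 4 kept the lower direction throughout. Over all genes, 19 passed after TPM rescaling, 8 with a mean FPKM of at least 5, 11 with the replicate block and 120 in voom, and 0 without any single library. The number of the 10 lower in ISRIB was 6 to 10 over the alternatives. Their median was −0.091 after TPM rescaling, and −0.091 to −0.016 when single libraries were left out. The 6 genes near 0 changed direction in places. TPM rescaling gave Lats1 −0.046 and Tead2 −0.047, and quantile normalization gave them −0.001 and −0.030. Removing the length trend gave Yap1 0.005, Stk3 0.026, Tead1 0.009 and Tead2 −0.034. Without Control replicate 2 and ISRIB replicate 1, Yap1 was at 0.011, Lats1 at −0.004 and Tead2 at −0.015. Leaving out single libraries gave −0.018 to 0.018 for Yap1, −0.041 to 0.042 for Lats1, −0.065 to 0.005 for Stk3, −0.077 to 0.042 for Sav1, −0.171 to 0.018 for Tead1, −0.018 to 0.032 for Tead2, −0.013 to 0.621 for Ccn1 and −0.176 to 0.036 for the log2 ratio of Tead1 to Tead2. The causes were not tested. The labels do not say whether equally numbered libraries were paired. Their deviations from the group means correlated at −0.19, −0.0909 and 0.192. The highest correlation, 0.355, was between Control replicate 2 and ISRIB replicate 1. Such correlations cannot show whether samples were paired by design. With the replicate number as a block none of the 10 was called, with Nf2 at an unadjusted p of 0.0596. The planned edgeR test on recovered reads was not run, since the deposited values are not counts. Counting error was 1.1% to 2.06% for the 10 genes, and the spread of 3 libraries lay below it for Sav1 and Wwtr1 in Control and Stk4 in ISRIB.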
